A study of Mus musculus with 3 samples.

Results

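Among Cxcl13-TdTomato+ stromal cells of mouse lymph nodes, a small set of barcodes carried transcripts of several interferon-stimulated genes at once. A barcode, the tag of a droplet, was counted as interferon-gated (here "gated") if at least 2 of 5 such genes (Isg15, Ifit1, Ifit3, Rsad2 and Irf7) had at least 1 UMI, a unique molecular identifier that stands for 1 captured transcript. The gate was applied to barcodes with at least 200 genes, at most 10% mitochondrial UMIs and 0 counts of 13 genes of other cells. Of 5486 barcodes in all, 2243 were retained by these limits and 121 of them (5.39%) were gated. The comparison class was the 1725 retained barcodes with none of the 5 genes (here "ungated"), and 397 had exactly 1.

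The 3 libraries came from C57BL/6 mice of genotype CXCL13-TdTomato+, which carry a transgene with Cre and tdTomato under the Cxcl13 promoter. The cells were PDPN+ TdTomato+ CD31- CD45- by sorting. In the 2-IC group, with 2 libraries (replicates 1 and 2), the mice were given 2 antigen-immunocomplexes (ICs), 7 days and 24 h before analysis. In the 1-IC group, with 1 library, they were given 1 IC 24 h before, and every library thus had an IC 24 h before and none came from mice without one. The lymph nodes of several mice were pooled and no library is tied to single mice, so the spread between libraries is not a spread between single mice. Cxcl13 itself, the B cell attractant of the follicle, had a UMI in 94.2% of gated and 92.5% of ungated barcodes.

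Interferons are secreted proteins that set cells into an antiviral state. Type I and type III interferons act through a complex that holds STAT2 and IRF9 and binds the interferon-stimulated response element (ISRE), whereas interferon-gamma acts mainly through the gamma-activated site (GAS). The target genes include the IFIT proteins and viperin (Rsad2), which act against viral RNA and viral replication, the ubiquitin-like modifier ISG15, GTPases that attack the vacuoles of pathogens, the chemokines CXCL9 and CXCL10, and the peptide loading machinery of MHC class I. IRF7 is a transcription factor that amplifies type I interferon production.

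The promoter sequences of the gating genes are shown for the ISRE-like letters that most of them hold. The letters GAAANNGAAA, a core of the ISRE, were searched on both strands in the 250 bases before each start site in the RefSeq promoters of GRCm38.p6, and 4 of the 5 gating genes (80%) held a match, with none for Irf7 in this window. Matches are in capitals, read 5′ to 3′ on the strand of the gene, with those on the other strand shown as their reverse complement. Igtp and Cxcl10, which were not part of the gate and hold a match, are shown beside them. Of the other genes looked at, Cxcl9, Oasl2, Ifi44 and Irf9 held none in this window.
Isg15 (chr4:156200845-156200926, minus strand): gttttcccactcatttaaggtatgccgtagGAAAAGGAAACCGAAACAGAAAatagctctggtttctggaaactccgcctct
Ifit1 (chr19:34640755-34640843, plus strand): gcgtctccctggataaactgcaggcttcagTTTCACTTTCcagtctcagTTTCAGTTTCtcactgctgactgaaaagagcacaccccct
Ifit3 (chr19:34583343-34583446, plus strand): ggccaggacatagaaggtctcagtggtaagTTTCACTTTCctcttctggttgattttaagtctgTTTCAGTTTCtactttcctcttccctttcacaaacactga
Rsad2 (chr12:26456533-26456602, minus strand): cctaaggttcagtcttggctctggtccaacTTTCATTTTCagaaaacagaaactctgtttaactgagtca
Cxcl10 (chr5:92349063-92349132, minus strand): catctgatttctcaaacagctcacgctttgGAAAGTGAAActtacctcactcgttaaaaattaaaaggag
Igtp (chr11:58199492-58199555, plus strand): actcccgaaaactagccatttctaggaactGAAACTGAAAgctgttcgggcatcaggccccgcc

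Isg15 held 3 overlapping matches, Ifit1 and Ifit3 held 2 each, and Rsad2, Cxcl10 and Igtp held 1 each. The promoter of Ifit3b, a near-identical neighbour of Ifit3 on chromosome 19, gave the same stretch of 104 bases as Ifit3. Over all 27025 genes with a promoter the share with a match was 3.46%. It was 34.3% among the 99 matched genes that rose in gated barcodes in the comparison described further on, and 1.18% among the 85 that fell. For the GAS letters TTCNNNGAA the shares were 8.13% over all genes, 18.2% among genes that rose and 3.53% among genes that fell. A match of letters is not a bound site.

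The libraries differed in depth. The 2-IC replicate 1 library held 20607903 UMIs over 3790 barcodes, 2-IC replicate 2 held 12788101 over 1029, and the 1-IC library held 3766526 over 667. Retained barcodes had a median of 4700.5, 14732 and 5979 UMIs in the same order. The 2-IC replicate 2 library stood apart, since it supplied 170 of the 220 barcodes of a cluster led by Adamts5 and Lama4 and all 95 of a cluster led by Thbs1. It also shared 76 of its barcodes (7.39%) with 2-IC replicate 1, of which 15 were retained in both, and 2-IC replicate 1 shared 2 with the 1-IC library. Of the 121 gated barcodes 3 were shared, all in 2-IC replicate 2.

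The gated share was highest in the 1-IC library. It was 3.67% in 2-IC replicate 1 (56 of 1526, exact binomial 95% interval 2.78 to 4.74), 6.14% in 2-IC replicate 2 (24 of 391, 3.97 to 9.0) and 12.6% in the 1-IC library (41 of 326, 9.18 to 16.7). These intervals cover counting error only, and with 1 library the 1-IC condition could not be tested against the 2-IC condition. The interval of the 1-IC library lay above those of both 2-IC libraries. Without the shared barcodes the shares were 3.77%, 5.66% and 12.6%.

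A gate that needs UMIs of several genes passes deep barcodes more readily. When each barcode was thinned to 2000 UMIs, with 219, 45 and 55 shallower barcodes left out, 16 of 1307 (1.22%, interval 0.701 to 1.98), 1 of 346 (0.289%, 0.00732 to 1.6) and 15 of 271 (5.54%, 3.13 to 8.96) passed. Before thinning, 4.21%, 6.65% and 14.0% of the same barcodes had passed. The 1-IC library stayed above both 2-IC libraries at equal depth, whereas the order of the 2-IC libraries turned. A stricter gate of at least 3 genes was passed by 19, 5 and 14 barcodes (1.25%, 1.28% and 4.29%). Every cell type can make these transcripts, so no cell type here gives a background share for free RNA, whose part in the gate was not tested.

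**Figure D1:**
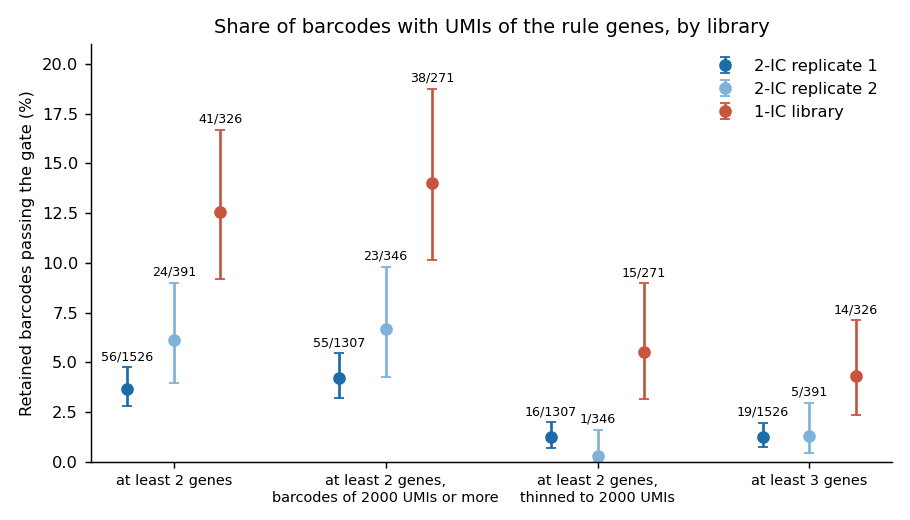
Percent of retained barcodes that passed the gate in each library (y axis), for 4 forms of the gate (x axis), with exact binomial 95% intervals as bars and the numbers of barcodes above them. The 1-IC library (red) gave the highest share under each form, from 4.29% to 14.0%.

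Most gated barcodes were just inside the gate. Exactly 2 of the genes were detected in 83, 3 in 24, 4 in 10 and all 5 in 4. The most frequent combination was Isg15 with Irf7, in 40 barcodes, followed by Isg15 with Ifit3 in 14 and by these 3 genes together in 13. Isg15 had a UMI in 103 of 121 gated barcodes (85.1%), Irf7 in 84 (69.4%), Ifit3 in 57 (47.1%), Ifit1 in 44 (36.4%) and Rsad2 in 10 (8.26%). The combinations differed between libraries, since Irf7 had a UMI in 37 of 41 gated barcodes of the 1-IC library, in 35 of 56 of 2-IC replicate 1 and in 12 of 24 of 2-IC replicate 2.

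The barcodes were selected on the UMIs of these 5 genes, so their levels are a description only. Summed over the gated barcodes, Isg15 stood at 381, 98.0 and 651 CPM (counts per 1000000 UMIs of the summed barcodes) over the 3 libraries, in the order 2-IC replicate 1, then 2-IC replicate 2, then 1-IC, which is used for all values below. Irf7 stood at 112, 34.1 and 307 CPM, Ifit3 at 165, 49.0 and 239, Ifit1 at 202, 23.4 and 129, and Rsad2 at 25.2, 8.53 and 33.8. All 5 were lowest in 2-IC replicate 2, the deepest library, where a barcode can pass at a lower level. Just inside the gate, with 2 genes, Isg15 stood at 154, 92.1 and 191 CPM, and just outside it, with 1 gene, at 103, 54.9 and 142.

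Gated barcodes were deeper than ungated ones. Their median UMIs were 6668.5 against 4444 in 2-IC replicate 1, 19057 against 13606 in replicate 2 and 7187 against 5353.5 in the library given 1 IC, which are ratios of 1.5, 1.40 and 1.34. Of the gated barcodes 9 of 56, 5 of 24 and 7 of 41 lay in the top 5% of UMIs of their library. Mitochondrial UMIs made up a median of 2.58%, 3.1% and 1.31% in gated and 2.81%, 2.85% and 1.51% in ungated barcodes. Malat1, a nuclear RNA, was lower in gated barcodes of every library, at medians of 2.58%, 5.31% and 7.74% of UMIs against 3.14%, 6.12% and 8.60%. The part of depth and of doublets in the gate beyond the thinned values was not tested.

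Gated barcodes belonged to no single stromal type. The retained barcodes were clustered with the interferon genes left out of the variable genes, which gave 10 clusters, and gated barcodes lay in each of them. The share of all gated barcodes was largest in the cluster led by Hamp2, Timd4, Tnfsf11 and Ch25h (30 of 121, 24.8%, against 17.9% of ungated barcodes). It held 14 of 56 gated barcodes of 2-IC replicate 1 and 15 of 41 of the 1-IC library but 1 of 24 of 2-IC replicate 2 (4.17%, against 5.71% of ungated ones). Its share was 12.4% over all libraries at a finer clustering (resolution 1.2). At a coarser one (resolution 0.4) it was 28.1%, below the 33.1% of the cluster with the most Fmod. The cluster led by Adamts5 and Lama4 followed with 22 (18.2% against 7.77%), 16 of them from 2-IC replicate 2. In that library it held 66.7% of gated and 36.8% of ungated barcodes. Clusters led by Wfdc1 and Dpep1 and by Cxcl1, Klf4 and Atf3 held 18 and 15. These 4 clusters stayed unnamed. The first was led by Tnfsf11 and Ch25h, both markers of interfollicular reticular cells (IFRCs), but these were the only markers fixed for that type and at least 3 were needed for a name.

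Among the clusters named from markers, 10 gated barcodes lay in the TBRC-like cluster (T-B border reticular cells, led by Ccl21a and Fmod) and 9 in the MedRC-like cluster (medullary reticular cells, with Cyp2f2 and Inmt). The third MedRC marker, Nr4a1, stood at 713 CPM in the MedRC-like cluster but at 918 CPM in the unnamed cluster led by Cxcl1. The FDC-like cluster (follicular dendritic cells, led by Cr2 and Madcam1), whose cells hold antigen for B cells, held 5 gated barcodes, or 4.13% of them (interval 1.36 to 9.38), against 11.7% of ungated barcodes (10.2 to 13.3). This share depended on the gate and the clustering, at 9.38% after thinning (3 of 32, 1.98 to 25.02), 7.89% with at least 3 genes (3 of 38, 1.66 to 21.4) and 0.826% (1 of 121) at resolution 1.2 or with 20 principal components. All 5 came from the 1-IC library, where 5 of 74 FDC-like barcodes (6.76%, 2.23 to 15.1) were gated. In the 2-IC libraries 0 of 128 (interval 0 to 2.84%) and 0 of 35 (0 to 10.0%) were gated. FDC-like barcodes had medians of 5172, 9529 and 4662.5 UMIs, above the median of all retained barcodes in 2-IC replicate 1 and below it in the other libraries. With 3 libraries the smallest p of an exact sign-flip test is 0.25, and the cluster makeup is given as values with no test.

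The clusters also held cells outside the stroma. The cluster led by immunoglobulin genes, with a median of 1214 UMIs, held 3 gated barcodes, and the macrophage/DC-like cluster, led by Lyz2 and Tyrobp, held 6. Within the cluster led by Tnfsf11 the gated share was 4.39% (14 of 319), 4.35% (1 of 23) and 23.4% (15 of 64) in the 3 libraries. The share was also higher in the 1-IC library than in 2-IC replicate 1 in the clusters led by Cxcl1 (14.8% against 3.77%) and Wfdc1 (11.1% against 5.56%) and in the MedRC-like cluster (9.38% against 2.37%), but not in that led by Adamts5 (1 of 10 against 5 of 40). In 2-IC replicate 2 the Wfdc1-led and MedRC-like clusters held 1 gated barcode each, of 3 and 8 barcodes, which are higher shares than in the 1-IC library.

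**Figure D2:**
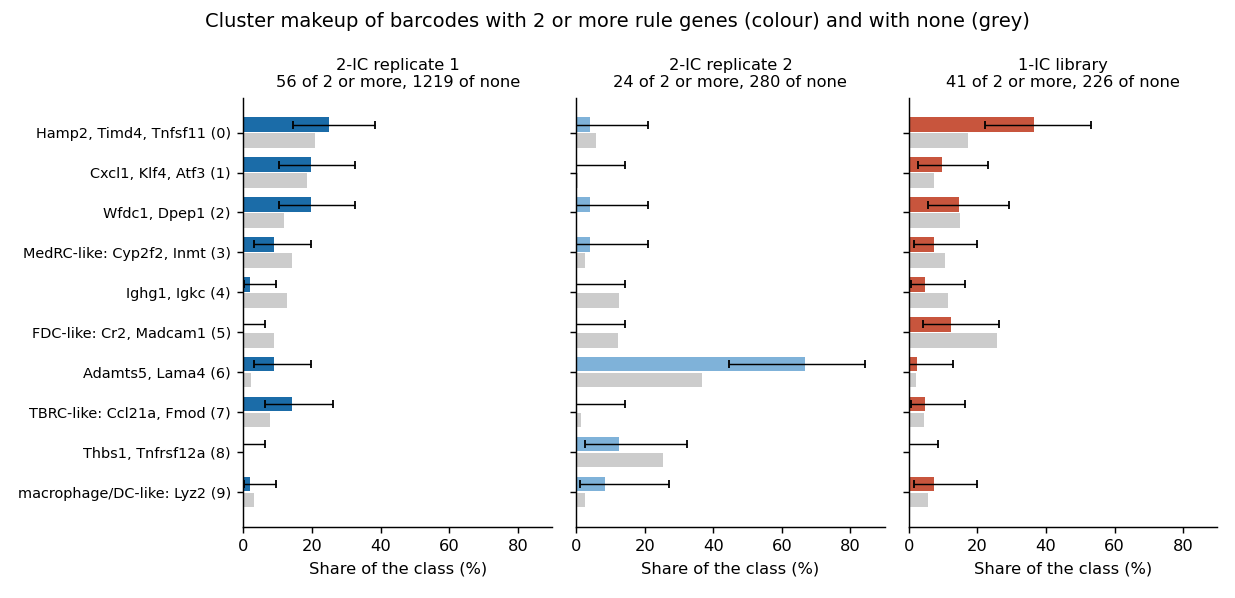
Percent of gated (colour) and of ungated barcodes (grey) in each cluster (y axis, named by leading genes), 1 panel per library, with exact binomial 95% intervals on the gated shares. Gated barcodes spread over most clusters of 2-IC replicate 1 and the 1-IC library. In 2-IC replicate 2, 66.7% of gated and 36.8% of ungated barcodes lay in the cluster led by Adamts5 and Lama4.

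The gated and ungated barcodes of each library were then summed and compared over 12630 genes, with the library as a block, to find which other genes differed. In gated barcodes 129 genes rose (1.02% of those tested) and 121 fell (0.958%). Genes of 8 lists of interferon biology made up 71 of the rises and 1 of the falls (Ccl2), with 113 genes of these lists tested and a median log2 fold change of 1.12, against -0.03 over all genes. To allow for the different cluster makeup, the ungated barcodes were also weighted to the clusters of the gated ones. Then 75 genes rose (0.594%), 53 of them of the interferon lists, and 11 fell (0.0871%), with 74 and 11 in common with the unweighted calls. The rises of the interferon lists kept most of their number under weighting, and the falls did not. The weighted test was also weaker, since adjusted p rose for genes whose fold change held. For Oas1a the log2 fold change was 3.37 and 3.42 when weighted, but the edgeR adjusted p went from 0.000911 to 0.0587. For Cr2 the fold change itself shrank, from -2.39 to -0.24. How many of the calls were lost to cluster makeup and how many to the weaker test was not tested. The p-values rest on a spread that edgeR estimated as common to all genes (its prior degrees of freedom were infinite), and on libraries rather than mice.

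**Figure D3:**
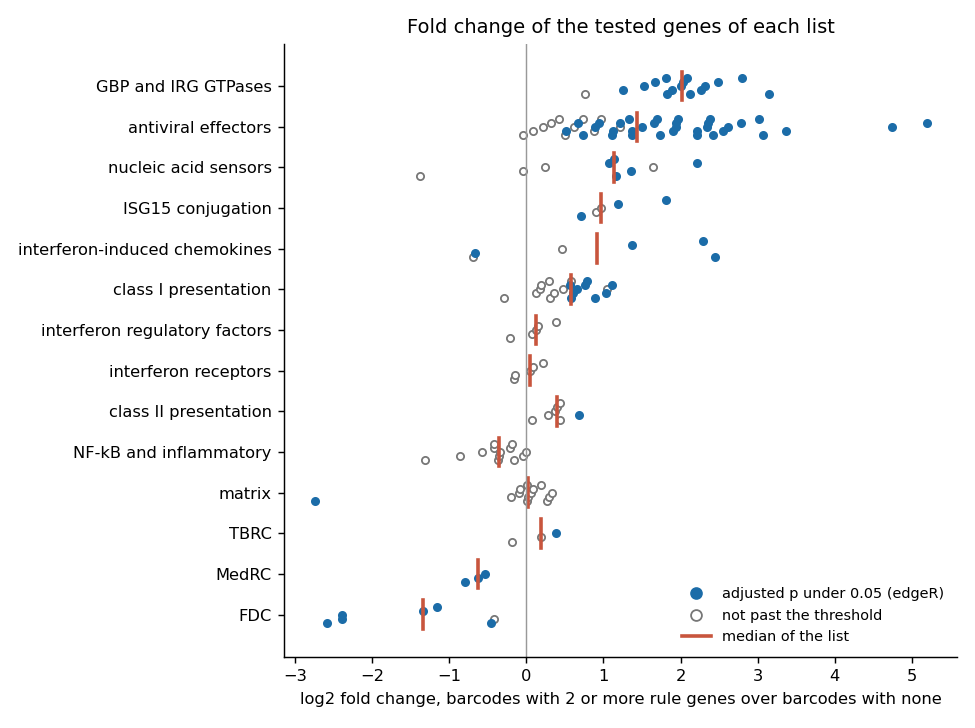
Log2 fold change of gated over ungated barcodes (x axis) for each tested gene of 14 lists (y axis), filled where the edgeR adjusted p was under 0.05, with the median of each list as a red bar. GTPases and antiviral effectors lay to the right, at medians of 2.02 and 1.44, and FDC markers to the left, at -1.34.

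The chemokines CXCL9 and CXCL10, which draw activated T cells through CXCR3, rose. Cxcl10 stood at 1016, 550 and 1016 CPM in gated and at 196, 105 and 165 CPM in ungated barcodes (log2 fold change 2.45, SE 0.14, adjusted p = 1.21e-66). Cxcl9 stood at 521, 420 and 865 against 66.1, 159 and 152 CPM (2.28, SE 0.15, adjusted p = 1.53e-51). For both genes the lowest gated library lay above the highest ungated one. Over all genes tested, 3.9% were higher and 5.67% lower with no such overlap. After thinning to 2000 UMIs, Cxcl10 still passed (3.16, adjusted p = 1.27e-38) but Cxcl9 did not (0.74, adjusted p = 0.975). That fit held only 2-IC replicate 1 and the 1-IC library, with 16 and 15 gated barcodes. Cxcl9 stood there at 250 against 87.7 and 500 against 234 CPM.

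Of the 6 chemokines tested Ccl8 also rose (32.1, 14.9 and 21.5 against 10.4, 3.01 and 16.8 CPM, log2 fold change 1.37, adjusted p = 0.0413). Ccl2, a monocyte attractant, fell in the fit (-0.66, adjusted p = 0.00292) but not in every library. It stood at 209 against 357 CPM and 198 against 681 CPM in the 2-IC libraries, and at 184 against 77.9 CPM in the 1-IC library. Weighted by cluster, Ccl8 (1.21, adjusted p = 0.686) and Ccl2 (-0.69, adjusted p = 0.667) no longer passed, though their fold changes were of similar size.

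The GTPases that act on pathogen vacuoles, the guanylate-binding proteins (GBP) and immunity-related GTPases (IRG), moved most uniformly, with 15 of 16 tested higher and none lower. Iigp1, an IRG, stood at 580, 379 and 629 CPM against 88.4, 140 and 85.5 (log2 fold change 2.32, SE 0.15, adjusted p = 9.96e-51). Igtp stood at 119, 81.0 and 104 CPM against 16.7, 13.1 and 13 (2.79). Gbp6 stood at 25.2, 34.1 and 24.6 against 1.93, 3.83 and 4.58 CPM (3.14). Gbp7 and Ifi47 rose by 1.67 and 1.25 on the log2 scale. Weighted by cluster, 14 of the 16 still passed. Gm12250, among the 10 largest rises, stood at 39.0, 53.3 and 67.5 CPM against 3.05, 1.92 and 1.53 (4.34). Members of the GBP and IRG families share sequence, so the split of reads between relatives is uncertain.

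Of 44 antiviral effectors tested, 33 rose and none fell, with a median log2 fold change of 1.44, and 24 rose under weighting. Ifit3b had the largest rise among genes higher in all 3 libraries, at 27.5, 6.39 and 114 CPM in gated and 0.963, 0.274 and 1.53 CPM in ungated barcodes (log2 fold change 5.19, SE 0.58, adjusted p = 1.22e-16). It is a near-identical copy of Ifit3, which chose the barcodes, and is not independent of the gate. Ifi44 stood at 32.1, 6.39 and 36.8 against 0.963, 0.274 and 1.53 CPM (4.74). Rtp4 (3.07), Oasl2 (3.02) and Mx1 (2.78) followed, Oasl2 at 94.0, 63.9 and 101 CPM against 13, 8.49 and 8.40. Oasl2 belongs to the oligoadenylate synthetase family, which senses viral RNA, and MX1 traps viral components. Mx1 stood at 39.0, 4.26 and 49.1 CPM against 3.85, 2.74 and 5.34, so that in 2-IC replicate 2 it rested on 2 UMIs in gated barcodes. Without 2-IC replicate 1, Mx1 no longer passed (2.3, adjusted p = 0.0929).

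Oas1a (3.37), of the same synthetase family, passed with adjusted p = 0.000911 but not under weighting (3.42, adjusted p = 0.0587). The abundant effectors named next rose by less. Ifitm3, a membrane protein that hinders viral entry, stood at 4376, 2210 and 5696 CPM against 2486, 1373 and 2486 (0.89), and Ly6e stood at 1108, 750 and 1185 against 574, 406 and 398 (1.12). Ifi27l2a rose from 241, 16.7 and 217 to 583, 228 and 1292 CPM (2.35). Ifitm1 rose by 0.51, but not under weighting (0.30, adjusted p = 0.80). Outside the lists, Serpina3f, a serine protease inhibitor, rose to 41.3, 128 and 64.4 from 3.69, 20.5 and 0.763 CPM (3.21), and Ly6a rose by 1.87.

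Of 10 JAK-STAT signalling genes 3 rose and none fell, with a median of -0.06, and 1 rose under weighting. The 3 were those of the ISRE-binding partners STAT2 and IRF9, and Usp18. Stat2 stood at 55.0, 40.5 and 58.3 CPM against 12.7, 21.9 and 9.92 (log2 fold change 1.73) and Irf9 at 41.3, 66.1 and 70.6 against 18.3, 24.6 and 29.8 (1.28). Usp18 (0.71), a protease that removes ISG15 and restrains receptor signalling, rose by less. The kinase gene Jak1 (-0.14, adjusted p = 0.912) and Socs3 (-0.13, adjusted p = 0.905), a feedback inhibitor of cytokine receptors, did not pass. Under weighting Stat2 passed, and Irf9 (adjusted p = 0.0626) and Usp18 (0.243) did not.

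None of 5 interferon receptor genes and none of 5 further interferon regulatory factors passed the test, with medians of 0.05 and 0.12. Irf1, itself a target of interferons, stood at 78.0, 59.7 and 104 against 63.2, 48.7 and 68.7 CPM (0.39, adjusted p = 0.630). Of 9 nucleic acid sensors 5 rose, namely Zbp1 (2.21), Eif2ak2 (1.36), Tlr3 (1.16), Ifih1 (1.14) and Ddx58 (1.07), the last 2 encoding the RNA helicases MDA5 and RIG-I. Under weighting Zbp1 and Ddx58 passed. Ifih1 (1.09, adjusted p = 0.0682), Eif2ak2 (1.09, adjusted p = 0.161) and Tlr3 (1.04, adjusted p = 0.693) did not. By DESeq2 these 3 did not pass either (adjusted p = 0.101, 0.0512 and 0.768). Zbp1 stood at 68.8, 21.3 and 101 CPM against 14.3, 7.94 and 15.3. Of 5 genes of ISG15 conjugation, Herc6 (1.81), Ube2l6 (1.19) and Usp18 rose. The interferon genes themselves were not seen in gated barcodes. Of 12 listed, Ifnz had 2 UMIs among retained barcodes, none of them gated, and Ifng had 22 UMIs in 11 barcodes that the contaminant filter or quality limits had left out, and the other 10 were at 0 in every barcode. Secreted factors from cells outside the sort cannot be read from these libraries.

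MHC class I presentation moved by less. Of 19 genes 9 rose and none fell, with a median of 0.58. The peptide transporter gene Tap1 stood at 98.6, 68.2 and 123 CPM against 55.0, 35.3 and 47.3 (1.03, adjusted p = 0.000101), and Psmb8, an immunoproteasome subunit, at 413, 262 and 506 against 227, 147 and 253 (0.89). The non-classical genes H2-T22 (1.11) and H2-T23 (0.76) also rose, with the caution that class I genes share sequence. The class I light chain gene B2m did not pass in edgeR (3915, 2718 and 3360 against 3252, 2362 and 2399 CPM, 0.31, adjusted p = 0.127) but did in limma voom (0.0266) and without 2-IC replicate 2 (0.00245), and the heavy chain gene H2-K1 did not pass (0.13, adjusted p = 0.864). Of 7 class II genes only H2-Aa rose (0.68, adjusted p = 0.00907), at 115, 70.3 and 325 against 128, 43.2 and 118 CPM, and it was lower in 2-IC replicate 1. It did not pass under weighting, where its fold change was 0.77 (adjusted p = 0.160). Lgals9, the ligand of TIM-3, rose by 1.2 on the log2 scale.

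**Figure D4:**
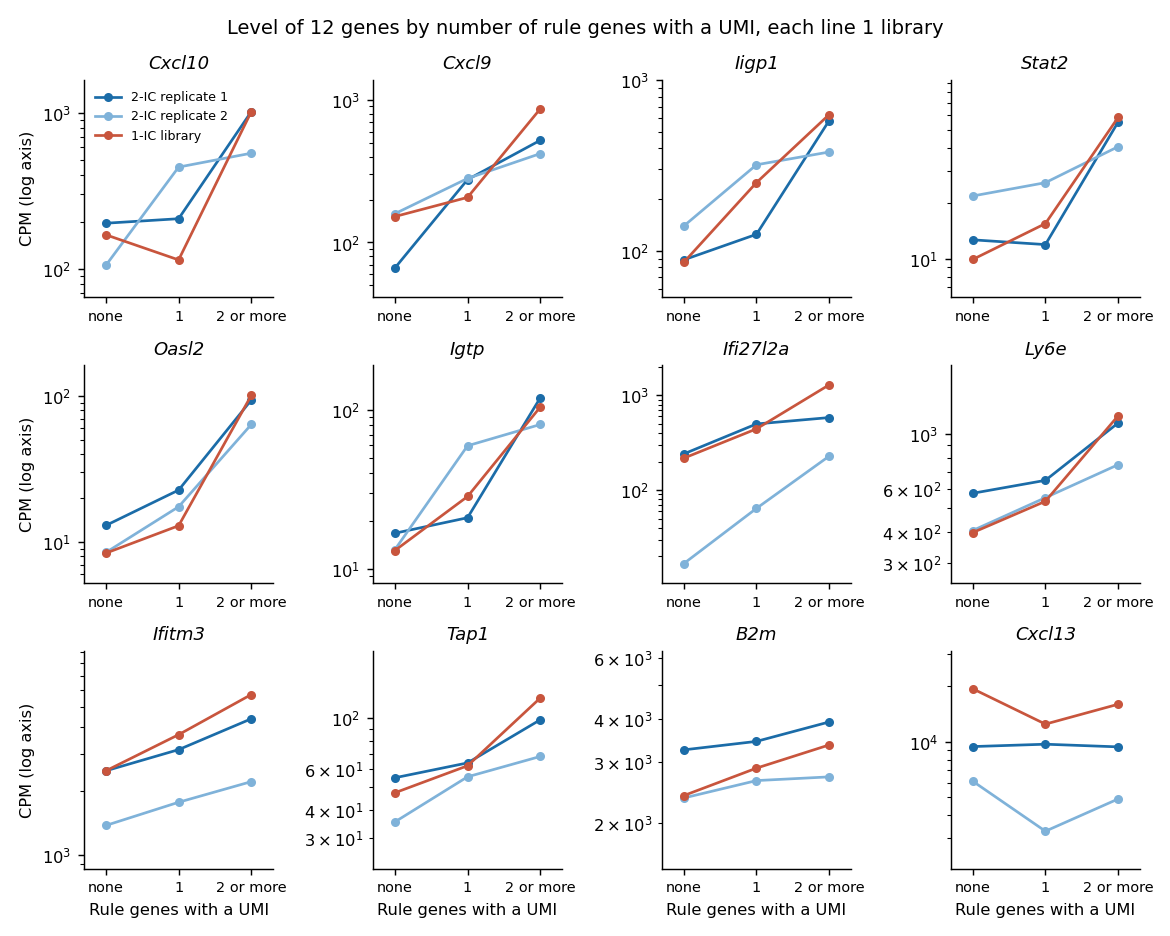
Level of 12 genes in CPM (y axis, logarithmic) in barcodes with none, 1, or 2 or more of the gating genes (x axis), each line 1 library. Cxcl10, Cxcl9, Iigp1, Stat2 and Oasl2 stood higher with 2 or more genes than with none in all 3 libraries, whereas Cxcl13 stood higher in none of them.

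Genes of follicular dendritic cells fell. Of 7 FDC markers 6 fell, with a median of -1.34. Cr2, the complement receptor that holds ICs on FDCs, stood at 6.88, 32.0 and 58.3 CPM in gated and 128, 132 and 221 CPM in ungated barcodes (-2.39, SE 0.23, adjusted p = 3.71e-22). The other 5 were the Fc receptor genes Fcgr2b (-2.59) and Fcer2a (-2.39), Sox9 (-1.34), Cd200 (-1.15) and Clu (-0.46). Coch stood at 39.0, 2.13 and 46.0 against 40.3, 31.8 and 32.1 CPM (-0.41, adjusted p = 0.793).

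After thinning Cr2 did not pass (-2.16, adjusted p = 0.392), and with at least 3 gating genes its fold change was -1.18 (adjusted p = 0.0155). With 3 to 5 gating genes Cr2 stood at 0, 123 and 143 CPM, against 10.5, 0 and 0 with exactly 2. In 2-IC replicate 1 it fell at each step (128, 65.7, 10.5 and 0 CPM with none, 1, 2 and 3 to 5 genes). In the other libraries Cr2 did not fall steadily with the number of genes. Under weighting by cluster none of the FDC markers passed, and the fold change of Cr2 was -0.24 (adjusted p = 1.00). Of the 121 genes that fell, 78 (64.5%) had their highest level among ungated barcodes in the FDC-like cluster, against 13.8% of all genes tested. Madcam1, a marker shared by FDCs and marginal reticular cells (MRCs), also fell (-1.78, 22.9, 0 and 46.0 against 48.0, 32.6 and 147 CPM) and did not pass under weighting.

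Among the 10 largest falls 7 genes, Aplp1, Brinp2, Dbx2, Entpd6, Kif21a, Snap91 and Ttn, had no UMI in any gated barcode. With a floor of 3 counts over all gated barcodes, they were at least 2.09-fold (Brinp2) to at least 4.29-fold (Entpd6) lower, on 57 to 117 UMIs in ungated barcodes. The other 3 were Hamp, Nphs1 and Wif1. Hamp, which encodes the iron hormone hepcidin, stood at 4.59, 0 and 0 against 65.3, 12.3 and 87.0 CPM. Nphs1 stood at 0, 0 and 3.07 against 8.67, 10.1 and 51.9 CPM. Wif1, an inhibitor of WNT proteins, stood at 2.29, 0 and 0 against 11.2, 18.9 and 28.2 CPM, and of the 10 only Wif1 passed under weighting (adjusted p = 0.0394).

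The 3 markers of medullary reticular cells fell and passed under weighting, but not under each of the other settings. Inmt stood at 328, 439 and 160 CPM against 493, 581 and 315 (-0.63, weighted -0.72, weighted adjusted p = 0.00838). Cyp2f2, a cytochrome P450, stood at 64.2 against 122 and 61.8 against 132 CPM in the 2-IC libraries but at 52.2 against 51.1 in the 1-IC library (-0.79, weighted -1.01, weighted adjusted p = 0.0467). Nr4a1, a nuclear receptor of the immediate early response, stood at 397, 241 and 144 against 503, 369 and 234 CPM (-0.54, weighted -0.61, weighted adjusted p = 0.0459). Igfbp3, a binding protein of insulin-like growth factors, stood at 486, 635 and 292 against 868, 831 and 580 CPM (-0.72, weighted -0.89, weighted adjusted p = 0.000610). Inmt and Nr4a1 were lower in 3 of 3 libraries and Cyp2f2 in 2 of 3, and by limma voom Cyp2f2 did not pass (adjusted p = 0.0568). By DESeq2 Inmt passed (adjusted p = 0.0401), and Cyp2f2 (0.868) and Nr4a1 (0.224) did not. Without 2-IC replicate 1 none of the 3 passed (adjusted p = 0.121 for Inmt, 0.573 for Cyp2f2 and 0.185 for Nr4a1). Cyp2f2 was also lost without 2-IC replicate 2 (0.26), and Inmt (0.158) and Nr4a1 (0.238) without the 1-IC library. Without shared barcodes Cyp2f2 (0.0687) and Nr4a1 (0.104) did not pass, and after thinning none did.

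Markers of the other reticular cells did not follow. Of the TBRC markers Ccl19 rose (2326, 1618 and 2765 against 1697, 1335 and 2024 CPM, 0.39, adjusted p = 0.0259), but not under weighting (0.912). Fmod (0.19, adjusted p = 0.932) did not pass. Ccl21a, a T cell attractant, went opposite ways by library, at 5498, 1788 and 6761 CPM in gated and 4427, 4417 and 5199 CPM in ungated barcodes (-0.19, adjusted p = 0.657). Without 2-IC replicate 2 it passed as higher (0.31, adjusted p = 0.00212). It passed as lower within the cluster led by Tnfsf11 (-0.81, adjusted p = 1.87e-05), without the immunoglobulin, Lyz2 and Cr2 clusters (-0.57, adjusted p = 5.5e-05) and against all other barcodes (-0.32, adjusted p = 0.022). Neither did Tnfsf11, the RANKL gene of marginal reticular cells and IFRCs (0.10, adjusted p = 0.961), nor Ch25h (-0.03, adjusted p = 0.997). Cxcl13 stood at 9380, 4881 and 16005 CPM against 9415, 6102 and 19439 (-0.21, adjusted p = 0.435). It passed as lower without the immunoglobulin and Lyz2 clusters (-0.44, adjusted p = 0.00978) and without the filter on low counts (-0.30, adjusted p = 0.0219). Without the contaminant filter it also passed as lower (-0.85, adjusted p = 3.8e-07). Under weighting the fold change of Cxcl13 was 0.51. Of 13 matrix genes only Col14a1 fell (0, 2.13 and 3.07 against 9.47, 12.3 and 11.5 CPM, -2.74, adjusted p = 0.0394), and it did not pass under weighting (-2.19, adjusted p = 0.80). Of 13 NF-kB and inflammatory genes none passed (median -0.36). Of 10 cell cycle genes only Pcna, a clamp of DNA replication, rose (0.82, adjusted p = 0.0179). Under weighting its fold change was 0.83, but it did not pass (adjusted p = 0.225).

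Of the markers of other cell types, tested for RNA of cells outside the stroma, none passed the test as higher in gated barcodes apart from the class II gene H2-Aa above. The contaminant filter had already removed every barcode with a count of its genes of other cells. The absence of such RNA was thus partly set in advance, and these tests cover only what the filter let through. Without the filter, Igkc (0.86, edgeR adjusted p = 3.29e-05) and Lyz2 (1.66, adjusted p = 0.00154) passed as higher in gated barcodes. Of 8 B cell markers tested 1 fell, Igkc (307, 168 and 27.6 against 686, 452 and 47.3 CPM, -1.24), the most abundant of the list, whose summed level was 507, 209 and 169 CPM in gated and 869, 500 and 157 CPM in ungated barcodes. Cd52 of the same list was higher in 3 of 3 libraries (75.7, 17.1 and 114 against 52.8, 11.5 and 66.4 CPM, 0.62, adjusted p = 0.238). Cd22 was at 0 in gated barcodes. Of 9 markers of macrophages and dendritic cells 1 fell, Lyz2 (32.1, 23.4 and 18.4 against 104, 18.3 and 131 CPM, -1.55), the most abundant of that list over all retained barcodes, with Cd14 the most abundant in gated ones (49 of 150 UMIs). The list summed to 122, 117 and 129 against 198, 85.9 and 250 CPM, with Itgax at 0. Of its 9 markers tested, 2 were higher in 3 of 3 libraries and 0 were lower in 3 of 3. By limma voom 1 of the 9 passed as higher. Under weighting neither Igkc (-0.45, adjusted p = 0.554) nor Lyz2 (-1.39, adjusted p = 0.141) passed.

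Among barcodes kept by the same filter, the only T cell marker tested did not pass, and Trbc1, Cd3e, Cd3g and Cd8a were at 0 in gated barcodes. The T cell list summed to 4.59, 2.13 and 6.14 CPM in gated barcodes, from 5 UMIs in all, and to 8.67, 3.83 and 9.16 CPM in ungated ones. None of 2 plasmacytoid dendritic cell, 5 plasma cell, 4 endothelial and 4 perivascular markers tested passed, with Ccr9 and Klk1 of the first list and Kdr and Flt4 of the endothelial list at 0. Their summed levels were 117, 124 and 85.9 CPM against 118, 126 and 120 for plasmacytoid dendritic cells, with Tcf4 highest, and 29.8, 17.1 and 24.6 against 18.8, 15.1 and 20.6 for endothelial cells, with the most gated UMIs from Emcn (14 of 29). Emcn was higher in 3 of 3 libraries, at 11.5, 12.8 and 9.21 against 3.69, 5.47 and 6.87 CPM (1.15, adjusted p = 0.600), and the endothelial sum was also higher in each. For plasma cells they were 232, 245 and 141 against 267, 377 and 159, with Xbp1 highest, and for perivascular cells 977, 769 and 1000.5 against 1061, 1045 and 933, with Rgs5 highest. With the immunoglobulin and Lyz2 clusters left out, 104 genes rose, all of them among the 129, and 64 of them of the interferon lists. Malat1 fell with the gate (-0.39, adjusted p = 0.000270), but not under weighting (adjusted p = 0.872). Its part and that of the greater depth in the other falls was not tested.

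Barcodes with exactly 1 gating gene lay between ungated and gated ones in all 3 libraries for Cxcl9, Iigp1 and Igtp. Cxcl10 did so only in the 2-IC libraries, and in the 1-IC library it stood at 114 against 165 CPM in ungated barcodes. Against ungated barcodes, 60 genes rose (0.475%), 31 of them shared with the gated rises, and 70 fell (0.554%). This comparison shares its ungated barcodes with the main one, so some overlap is expected, and how much was not tested. Cxcl9 (1.24), Cxcl10 (0.81), Iigp1 (1.03) and Igtp (1.29) rose in it. Mx1 (-0.33, adjusted p = 0.958) and Ifit3b (1.16, adjusted p = 0.847) did not pass.

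The summed level of the GBP and IRG genes with none, 1, 2 and 3 to 5 gating genes was 403, 546, 1153 and 2874 CPM in 2-IC replicate 1, and 418, 763, 1185 and 3364 CPM in the 1-IC library. In 2-IC replicate 2 it was 469, 841, 1339 and 968 CPM, with 5 barcodes in the highest class. Cxcl10 was steeper, at 196, 209, 403 and 2177 CPM in 2-IC replicate 1 and 165, 114, 135 and 2300.5 CPM in the 1-IC library. In 2-IC replicate 2 it was highest with 2 genes, at 105, 448, 636 and 304 CPM. Cxcl9 differed from this, as it stood highest with 2 genes in the 1-IC library as well (152, 207, 931 and 769 CPM).

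**Figure D5:**
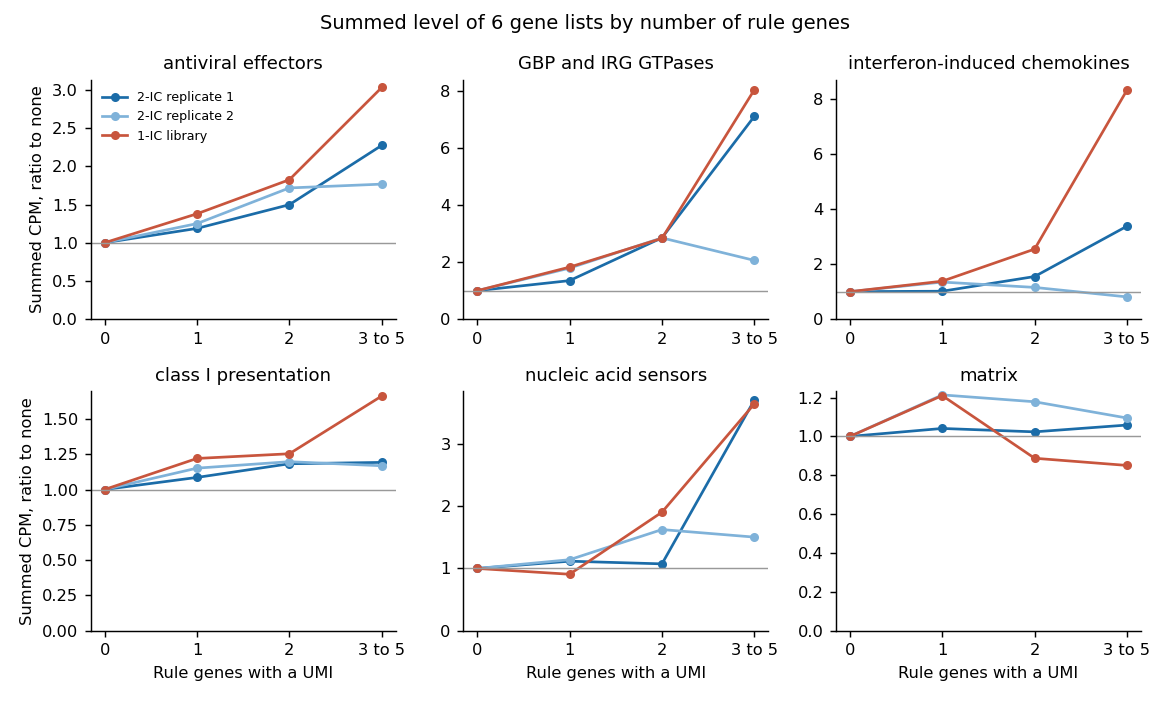
Summed CPM of 6 gene lists as a ratio to ungated barcodes (y axis) by number of gating genes with a UMI (x axis), each line 1 library. GTPases, effectors and chemokines stood highest at 3 to 5 genes in the 1-IC library and in 2-IC replicate 1. In 2-IC replicate 2, with 5 barcodes there, the GTPases and chemokines did not.

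Within the gated barcodes a few held most of the chemokine transcripts. The 13 barcodes with the most Cxcl10 carried 78.0% of its UMIs, up to 163 in a single barcode, while 65 of the 121 had none. For Cxcl9 the top 13 carried 86.3% and 75 had none. Iigp1 was less concentrated (48.4%, with 41 without), and Ly6e was found in 97.5% of gated barcodes with 29.4% in the top 13. A UMI of Cxcl10 was seen in 46.3% of gated and 24.3% of ungated barcodes, and of Iigp1 in 66.1% and 22.7%, at the depths given above.

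When the interferon genes were kept among the variable genes, 11 clusters formed, and 1 of 30 barcodes was led by Ifit1, Ifit3, Isg15 and Cxcl10. It held 27 of the 121 gated barcodes, 13 from 2-IC replicate 1, 1 from 2-IC replicate 2 and 13 from the 1-IC library, so that 94 gated barcodes stayed in other clusters. As the cluster was formed on these genes, its levels are a description. Its gated barcodes held 3025 CPM of Cxcl10, 1528 of Cxcl9 and 1387 of Iigp1, the other gated barcodes 345, 358 and 321, and ungated barcodes 162, 106 and 105. In the 1-IC library the other gated barcodes held 136 CPM of Cxcl10, below the 165 CPM of ungated ones, while they held 383 and 408 CPM in the 2-IC libraries, and Cxcl9 and Iigp1 stood above ungated barcodes in all 3. Of the 27, 9 lay in the cluster led by Tnfsf11 in the clustering without interferon genes, 8 in that led by Wfdc1, 4 in that led by Cxcl1 and 4 in that led by Adamts5. None lay in the FDC-like or TBRC-like clusters, and Cr2 was at 0 in them, against 36.8 CPM in the other gated barcodes.

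The comparison was repeated in the cluster with the most gated barcodes, that led by Tnfsf11, to hold the stromal type constant. There 49 genes rose (0.39%), 31 of them of the interferon lists and 43 shared with the main rises, and 26 fell (0.207%), 9 of them shared. Cxcl10 rose by 3.60, Cxcl9 by 4.51 and Iigp1 by 2.81 on the log2 scale. With 1 gated barcode in this cluster and 1 thinned one, 2-IC replicate 2 was left out of this fit and the next. At equal depth, with each barcode thinned to 2000 UMIs before the gate was applied, 9 genes rose and 21 fell. All 9 were among the main rises and 7 belonged to the interferon lists, and 9 of the 21 falls were shared. In the thinned barcodes Cxcl10 stood at 3063 CPM against 196 in 2-IC replicate 1 and at 2067 against 207 in the 1-IC library. Cxcl9, which lost its call, stood at 250 against 87.7 CPM and at 500 against 234, on 8 and 15 UMIs in gated barcodes. Gbp6 and Tlr3 had 0 UMIs in the 16 and 15 gated barcodes left in these libraries, few barcodes that limit what can be detected.

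Without 2-IC replicate 2, the library that stood apart, 126 genes rose and 96 fell, and the fold changes of Cxcl10, Cxcl9 and Iigp1 were 2.45, 2.72 and 2.75. Without 2-IC replicate 1, the library with the most barcodes, 80 rose and 49 fell. With barcodes shared between libraries left out, 98 rose, all among the 129, and 90 fell, 83 of them among the 121.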

How the data were processed

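The deposited counts are UMIs of 51912 genes in each barcode, without normalization, which the authors made with Cell Ranger (5.0.0 in the file header) on GRCm38 and Ensembl release 89. Barcodes were retained as given in the report. Counts were summed per library and gate class, and genes with at least 30 UMIs over retained barcodes were tested with edgeR 4.0.16 (TMM, quasi-likelihood test, the library as a block because the gated and ungated sums share a cell suspension, Benjamini-Hochberg adjusted p under 0.05 over all genes). The gating genes were not tested, and 1 gene of the interferon lists, counted in their totals, is not reported here. CPM are counts per 1000000 UMIs of a sum. Clusters were made in Seurat 5.3.0 under R 4.3.3, with 10 principal components, 20 neighbours and Louvain resolution 0.8. They used 2000 variable genes, taken after genes of the interferon, class I, class II and checkpoint ligand lists were left out. Of the genes left out, 60 had ranked among the first 2000. A cluster was named only from fixed markers. Scrublet (scanpy 1.11.5) called 9 of 5486 barcodes (0.164%), taken as a failure, so doublets were not removed.

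The alternatives were DESeq2 1.42.0, limma 3.58.1 (voom), other filters, gates and clusterings, thinning, weighting, and each library left out in turn. Barcodes shared between libraries, the clusters of other cells, the class with 1 gene, the stricter gate for cluster makeup and voom were added after seeing the data. Tested on simulated data for gated against ungated barcodes, where 200 of 12630 genes had a log2 change of 2, edgeR called 189 genes (183 changed). A log2 change of 1 gave 117 calls (114 changed), and no change gave 0. The changed genes were drawn only from those with at least 200 UMIs over retained barcodes. Sums were drawn with 1 fixed spread for all genes. The simulation thus gives no rate of detection for genes with fewer UMIs. It also gives no rate of detection or of false calls for genes whose counts sit in a few barcodes. Intervals are exact binomial at 95% and cover counting error only, and a count of 0 was taken to allow 3 counts.

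The genes named are the gating genes, the 10 largest rises and falls that went the same way in every library, the 3 most abundant genes of each list, the reticular and other cell markers, Malat1 and the genes leading a cluster. Stat2, Irf9, Zbp1, Tlr3, Eif2ak2, Tap1, Psmb8, H2-T22, H2-T23, Ly6e, Ly6a, Ifi27l2a, Ccl8, Col14a1 and Igfbp3 were chosen after their values were seen. The members and lists were chosen with earlier results of these data known. The short descriptions of the 2-IC libraries conflict in the labels, and libraries were grouped by title. The study's methods name 3 independent experiments with the nodes of 6 mice pooled for a condition, and a legend gives 6 to 7 mice for an experiment, but which experiment and mice gave which library is not given in the sources used here.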

Additional observations from a re-analysis of the deposited data

Results flagged for a closer look

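In the barcodes left out for a contaminant gene, which no comparison above used, the share with at least 2 gating genes was higher than in retained barcodes. It was 13.5% (217 of 1607), 13.7% (50 of 365) and 28.5% (85 of 298) in 2-IC replicate 1, in 2-IC replicate 2 and under 1 IC. As in retained barcodes, the 1-IC library held the highest share. Ccl2 went opposite ways in the libraries, with gated barcodes 106 CPM above ungated ones in the 1-IC library and below them in both 2-IC libraries, and this difference was not tested. Cyp2f2 was lower in gated barcodes of both 2-IC libraries but nearly equal in the 1-IC library, where gated barcodes stood 1.03 CPM above ungated ones on 17 UMIs, and this difference was not tested either.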

How the results depend on the processing

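Where 250 genes differed between gated and ungated barcodes, the number called was 41 (40 higher, 1 lower) without the replicate block of the library, 97 (78, 19) by DESeq2, 163 (62 lower) with filterByExpr, which sees the gate, 30 (9, 21) after thinning to 2000 UMIs, 142 (80, 62) with at least 3 gating genes, 86 (75, 11) with ungated barcodes weighted by cluster, 75 (49, 26) within the cluster led by Tnfsf11, 691 (442, 249) without the contaminant filter and 146 (44 lower) without the immunoglobulin, Lyz2 and Cr2 clusters. By limma voom 66 fell. Leaving out each library in turn gave 129 to 222 genes, 80 to 126 higher and 49 to 96 lower, the lowest without 2-IC replicate 1. The gated share (2-IC replicate 1, then 2-IC replicate 2, then 1-IC) was 1.25%, 1.28% and 4.29% with at least 3 genes, 20.1%, 28.4% and 30.7% with at least 1, 1.22%, 0.289% and 5.54% after thinning, and 8.71%, 9.79% and 20.2% without the contaminant filter. The FDC-like cluster held 0.826% of gated barcodes at resolution 1.2 and with 20 principal components. The Tnfsf11-led cluster held 15.6% after thinning and 12.4% at resolution 1.2. The Fmod cluster held 33.1% at resolution 0.4, 17.4% with 20 components and 2.63% with at least 3 genes. The ratio of median UMIs was 1.58 with at least 3 genes. For the genes named, 922 of the fold changes under alternatives kept their direction and side of the threshold, 314 kept the direction but no longer passed, and 10 newly passed. The sign turned for the following log2 fold changes, for which the cause was not tested. After thinning these were B2m (-0.25), Ccl19 (-0.15), Ccl2 (0.50), Cd200 (0.037), Cyp2f2 (0.036), Eif2ak2 (-0.84), Fmod (-2.07), Gbp6 (-5.57), H2-Aa (-1.2), H2-K1 (-0.40), Ifitm1 (-0.54), Irf1 (-0.17), Tlr3 (-6.49) and Tnfsf11 (-1.43). With at least 3 genes they were Ccl19 (-0.047), Coch (0.0084), H2-Aa (-0.76), H2-K1 (-0.0071) and Tnfsf11 (-0.60). Within the Tnfsf11-led cluster they were Ccl2 (0.76), Ccl8 (-0.14), Cd200 (0.094), Coch (1.97), Cxcl13 (0.38), Fcer2a (1.29), Fcgr2b (3.24), Madcam1 (0.36) and Sox9 (0.46). Without the contaminant filter they were Ccl2 (0.87), Coch (0.84), Col14a1 (1.38), Fmod (-0.39), Igkc (0.86), Lyz2 (1.66), Tnfsf11 (-0.65) and Ttn (0.47). Weighted by cluster they were Cd200 (0.25), Ch25h (0.31), Coch (1.47), Cxcl13 (0.51) and Fmod (-0.087). Without the immunoglobulin, Lyz2 and Cr2 clusters they were Cd200 (0.46), Ch25h (0.021), Coch (1.13), Cr2 (0.55), Cxcl13 (0.25), Fcer2a (0.78), Fcgr2b (1.2), Fmod (-0.16) and Madcam1 (0.39). Without the block they were Ccl21a (0.0061) and Ch25h (0.0065), and Ch25h also turned by DESeq2 (0.050), against all other barcodes (0.012) and without shared barcodes (0.036), as did Fmod in the last (-0.027). With each library left out in turn, Ccl21a ranged from -0.51 to 0.31, Ch25h from -0.49 to 0.42, Coch from -0.91 to 0.15, Fmod from -0.11 to 0.36 and Tnfsf11 from -0.15 to 0.41. In the thinned fit Cxcl13 was at -0.86, a larger fall than its thinned CPM show. These were 7344 against 8686 in 2-IC replicate 1 and 12300 against 16535 in the 1-IC library. Whether the scaling of that fit turned the small values was not tested, and they are not read as changes. Gbp6 and Tlr3 had 0 UMIs in thinned gated barcodes, so -5.57 and -6.49 are not measured fold changes. The alternative that removes doublets called by Scrublet was not run. With 24 to 56 gated barcodes a library, genes of low level can be seen to differ only where the difference is large.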
